A study of Mus musculus with 14 samples.

Results

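Complex I (NADH:ubiquinone oxidoreductase) genes were followed across 14 retinal ganglion cells (RGCs), each taken singly from adult mouse retinas. The members were chosen by symbol: every gene of the Nduf families a, b, c, s, v, af and ab that had a probe set annotated to that gene alone. The rule gave 44 of the 18193 genes measured, of which 34 encode subunits of the complex, 8 encode assembly factors, and the remaining pair is Ndufa4 with its paralog Ndufa4l2. The cells were the offspring of PV-Cre and Ai9 reporter mice of mixed 129P2/OlaHsd, 129 SV and C57BL/6 background, used as double heterozygotes, so that red tdTomato fluorescence marked cells in which the Pvalb promoter had driven Cre at some time. All 14 cells were picked by that fluorescence from papain-dissociated retinas and formed 1 group, named here cell 1 to cell 14, and the sources used here do not name the animal behind each cell. The study sought genes common to these RGCs and genes marking some of them. Each value was the MAS5 signal of a probe set on an Affymetrix Mouse430_2 array, made from oligo-dT primed cDNA after 35 cycles of PCR.

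Complex I is the first and largest enzyme of the mitochondrial respiratory chain. It takes electrons from NADH through a flavin and a chain of iron-sulfur clusters in its matrix arm, passes them to ubiquinone, and pumps protons through its membrane arm. A set of core subunits carries out the reaction, accessory subunits surround and stabilise them, and assembly factors help to build the complex without remaining in it. RGCs have a high demand for ATP along their axons, which are unmyelinated within the retina, and inherited defects of complex I are a known cause of optic nerve disease.

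Detection required a signal of no less than 8 times the median of the array, which put the threshold between signals of 64.2 (cell 14) and 440 (cell 1). The cells carried 9 to 13 of 13 RGC markers, 8 of which were detected in every cell. Cell 5 had the fewest genes detected, 13.96% of all, followed by cell 13 with 14.85%, and cell 12 had the most, 37.65%. Rod markers numbered 10 of 13 in cells 3 and 6 and 2 to 4 elsewhere. Muller glia markers ranged from 0 of 13 in cell 5 to 6 in cells 4 and 6. Among them Clu was detected in 12 cells and Glul in 8, and 5 were detected in no cell. Of 3 red blood cell markers, Hba-a2 was detected in 10 cells and the other 2 in none. The ratio of the 3' to the 5' control probe set of Gapdh, a sign of how far the cDNA reached, was 1.95 in cell 13 and 2.61 in cell 14 and 1.09 to 1.56 in the others. Because a transcript can be lost in the amplification of a single cell, a gene that was not detected may still have been expressed.

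Most complex I genes were found in most of the RGCs. Of the 44 genes, 38 (86.4%) were detected in at least 7 of 14 cells, against 24.8% of all genes tested. In every cell 7 genes (15.9%) were detected, against 2.64% of all genes: the core subunits Ndufs3, Ndufs7 and Ndufv2 and the accessory subunits Ndufa2, Ndufa13, Ndufb8 and Ndufb11. Only Ndufb4 was detected in no cell, which was so for 41.8% of all genes. Ndufb1, Ndufa4l2, Ndufaf2, Ndufaf6 and Ndufaf8 were detected in 1 to 5 cells. The median complex I gene was detected in 12 cells and the median of all genes in 1. Of the 616 values of complex I genes, 471 (76.5%) passed the threshold, and 216 of these reached a signal of 10000. The undetected values were mostly far below the threshold, since 126 of 145 lay under the lowest threshold of any array, and 40 of all 616 values lay within 2-fold of the threshold of their own array.

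**Figure D1:**
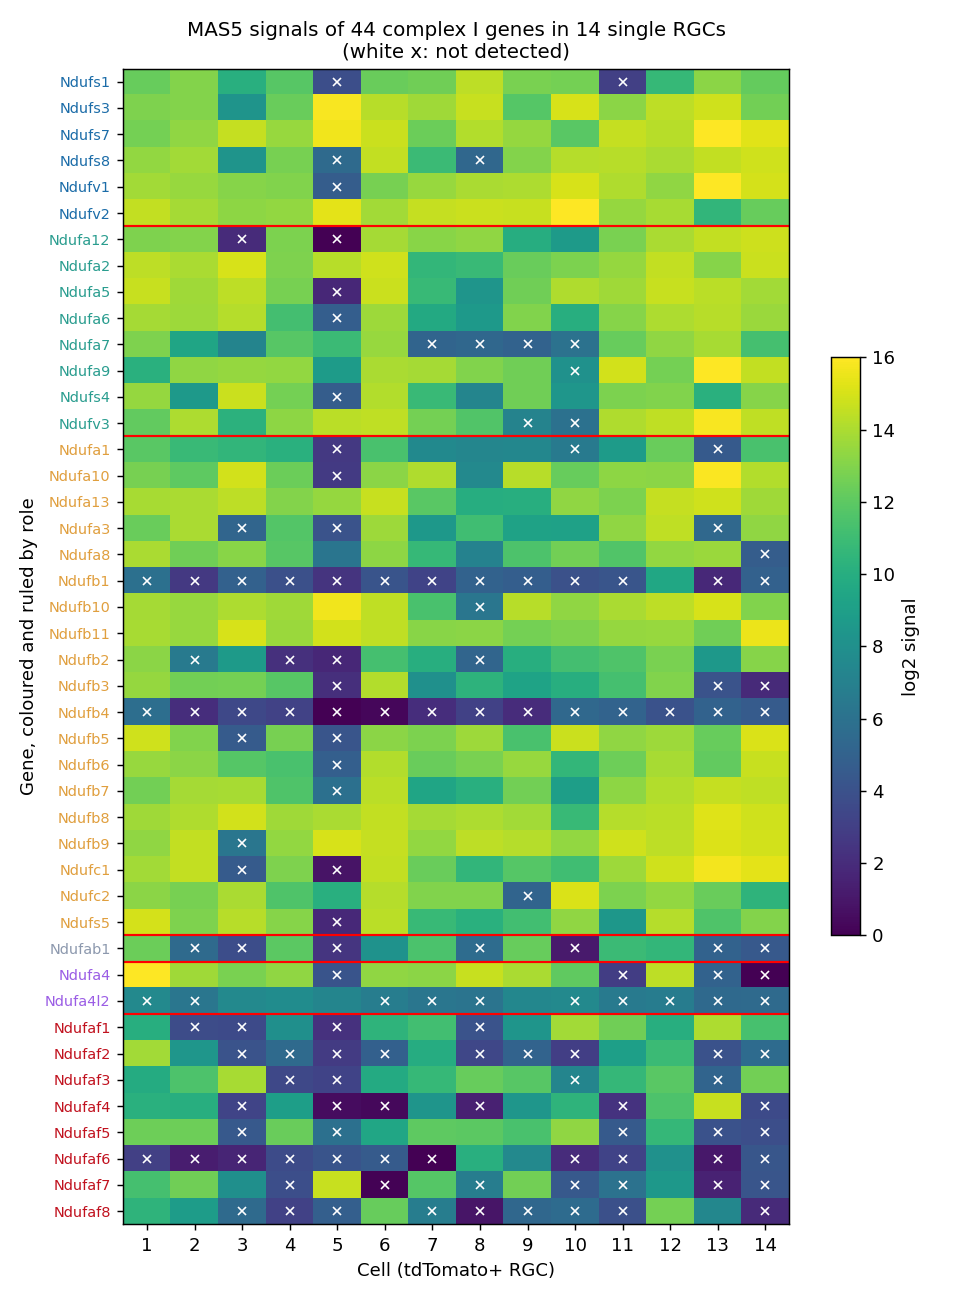
Log2 MAS5 signals of 44 complex I genes (rows, grouped by role with red rules: core, matrix arm accessory, membrane arm accessory, acyl carrier, Ndufa4 pair and assembly factors) in 14 single RGCs (columns). A white x marks a gene not detected in that cell, which was the case for 28 genes in cell 5, and colours compare cells within a row, since probe sets differ in brightness.

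The core subunits of the matrix arm that could be measured were detected together in 11 of 14 cells. Ndufs7, which holds the last iron-sulfur cluster before ubiquinone, ranged from 3842 in cell 10 over a median of 19109 to 67244 in cell 13. Ndufv2, an iron-sulfur subunit beside the NADH site, ranged from 1512 in cell 13 over 14935 to 76320 in cell 10. The order was thus turned around between these subunits, cell 13 being the highest for Ndufs7 and the lowest for Ndufv2, and cell 10 the reverse. Ndufs3, a subunit near the ubiquinone site, lay between 306 in cell 3 and 59031 in cell 5, with a median of 11303. Ndufv1, which binds NADH and the flavin, was at 25.8 in cell 5 and between 6684 and 67072 in the other 13 cells, with a median of 13014 over all 14. Ndufs1, the largest iron-sulfur subunit, had a median of 5119 and was undetected at 14.2 in cell 5 and 8.30 in cell 11, while the other 12 cells ranged from 1090 to 22054. Ndufs8, another iron-sulfur subunit, had a median of 12368 and was undetected in cells 5 and 8, at 46.1 and 40.6, against 315 to 29558 in the other 12 cells. Cells 5, 8 and 11 were therefore the cells without a full set, and cell 5 lacked 3 of the 6.

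All 8 accessory subunits of the matrix arm were detected in at least 7 cells, and 8 cells had all of them by the chosen probe sets. Ndufa2, a small thioredoxin-like subunit, was the member found in every cell, from 1537 in cell 7 over a median of 13558 to 32911 in cell 3. Ndufa5, Ndufa6 and Ndufs4 were each missed in cell 5 alone. Ndufs4, whose loss in mice gives a widely used model of mitochondrial encephalopathy, had signals of 152 to 26821 in the other 13 cells. Ndufa6, a subunit of the LYR family that docks the acyl carrier protein, had 407 to 20283 there, and Ndufa5 had 324 to 27116. Ndufa9, a nucleotide-binding subunit at the joint of the arms, was undetected in cell 10 alone, where its 269.7 lay just below the threshold of 292.4. The chosen probe set of Ndufa12 was undetected in cells 3 and 5 (both under 4), although 2 others of the gene were detected in cell 3, and Ndufv3, the small flavoprotein subunit, in cells 9 and 10. Ndufa7 was detected in 10 cells, with a lowest value of 32.2, a median of 2195 and a highest value of 15543, and the missing cells were 7, 8, 9 and 10.

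Of the 19 accessory subunits of the membrane arm, 17 were detected in at least 7 cells and 3 in all 14. Ndufb11, encoded on the X chromosome, varied least of all members found in every cell, with 5957 in cell 13, a median of 11718 and 46725 in cell 14 (SD 0.92 on the log2 scale). Ndufb8, a subunit often used as an antibody marker of the assembled complex, ranged from 1771 in cell 10 over 17043 to 37501 in cell 13 (SD 1.04). Ndufa13, also known as GRIM-19, ranged from 998 in cell 8 over 12418 to 28797 in cell 13 (SD 1.57). For comparison, the SDs of the other members found in every cell were 1.23 for Ndufs7, 1.36 for Ndufv2, 1.41 for Ndufa2 and 1.87 for Ndufs3. Ndufa10, Ndufb6, Ndufb7 and Ndufs5 were missed in cell 5 alone. Ndufa8 (cell 14), Ndufb9 (cell 3), Ndufb10 (cell 8) and Ndufc2 (cell 9) were each missed in another single cell. The gap was wide for Ndufb9, at 78.5 in cell 3 and 10444 to 36603 in the other 13 cells.

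The remaining membrane arm subunits were more scattered. Ndufb5 and Ndufc1 were undetected in cells 3 and 5, and their lowest signals elsewhere were 2751 and 1493. Ndufa1, another X-linked subunit, was undetected in cells 5, 10 and 13, Ndufa3 in cells 3, 5 and 13, and Ndufb3 in cells 5, 13 and 14. Ndufb2 was detected in 10 cells, with a lowest signal of 3.51, a median of 1049 and a highest of 9678, and was missed in cells 2, 4, 5 and 8. Ndufb1 was detected in cell 12 alone, at 729, while the other 13 cells had 3.64 to 61.2 and the median was 18.5. The probe set of Ndufb4 gave 0.471 to 55.5 with a median of 9.998.

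Several members could not be judged from single-gene probe sets. The array carries 2 probe sets that match Ndufb4 together with its close copies Ndufb4b and Ndufb4c, and these were detected in 14 of 14 cells, with medians of 9195 and 11508. The absence of Ndufb4 from all cells therefore held for its 1 single-gene probe set alone. A probe set shared by the matrix arm subunit Ndufs6 and its copy Ndufs6b was detected in 14 cells, at 644 to 23642 with a median of 4477. For the membrane arm subunit Ndufa11, 1 of the 2 probe sets shared with Ndufa11b was detected in 13 cells and the other in 1 cell. Ndufs6 and Ndufa11 were not counted among the 44. Some counted members also had shared probe sets. For Ndufa13, detected in every cell by its own probe set, 2 shared with Yjefn3 were detected in 0 of 14 cells, with medians of 4.84 and 10.3. A probe set of Ndufb2 and Adck2 was detected in 2 cells. Those of Ndufab1 and Ndufs5 with their pseudogenes were detected in 8 and 13 cells. Among the 44 chosen probe sets, 5 had an identifier that marks probes shared by several transcripts (Ndufa12, Ndufa2, Ndufa13, Ndufc2 and Ndufaf7) and that of Ndufa3 marks possible cross-hybridisation.

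Ndufab1, the mitochondrial acyl carrier protein, which is both a subunit of complex I and a carrier in fatty acid synthesis, was detected in 7 cells. Its signals ran from 2.21 over a median of 169 to 5336, with 286 as the lowest detected and 50.6 as the highest undetected value. By this probe set cells 1, 4, 6, 7, 9, 11 and 12 had it. Other probe sets of the gene were detected in cell 2 (681.5) and cell 10 (2444), where this one was not.

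Among the members detected in 4 to 10 cells, Ndufa4 had the widest gap between detected and undetected signals. This protein was first described as a complex I subunit and is now assigned to complex IV. In cells 1, 2, 3, 4, 6, 7, 8, 9, 10 and 12 its signal was between 4444 (cell 10) and 67899 (cell 1), and in cells 5, 11, 13 and 14 it was 17.8, 7.53, 32.9 and 0.835, with a median of 10040 over all cells. No value lay between 32.9 and 4444, a gap of 7.08 on the log2 scale. A single probe set measured the gene, so that no other probe set could repeat this split. The 4 cells without Ndufa4 included the 3 cells with the fewest RGC markers (5, 13 and 14, with 9 of 13 each). They also included the 2 with the highest Gapdh ratio (13 and 14). Cells 5 and 13 had the fewest genes detected (13.96% and 14.85% of all), while cells 11 and 14 had 23.87% and 19.92%. Cell 10, in which Ndufa4 was detected, had 19.62%. The part of any of these measures in the split was not tested. The paralog Ndufa4l2, which is known to be induced by low oxygen, had no such split. Its signals ran from 43.6 over 109 to 216, and the 4 detected cells (3, 4, 5 and 9, at 153 to 216) overlapped with undetected ones, which reached 188.

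Assembly factors were found in fewer cells than most subunits. Of the 8 Nduf assembly factors, 5 (62.5%) were detected in at least 7 cells, against 24.8% of all genes. None was detected in all 14, which was so for 2.64% of all genes. Their median was 7.5 cells, against 13 cells for the 34 subunits and 1 cell for all genes. A test of the difference from the subunits was not made. By the chosen probe sets, cell 12 was the only cell with all 8, and cell 5 had Ndufaf7 alone. Ndufaf1, which joins Ecsit, Acad9 and Tmem126b in a membrane arm assembly complex, was detected in 10 cells, with 4.96 as the lowest, 1043 as the median and 16627 as the highest signal. It was missed in cells 2, 3, 5 and 8. Ndufaf3, which acts with Ndufaf4 on the ubiquinone-binding module, was also detected in 10 cells (9.20, 1650 and 15166 as lowest, median and highest). The chosen probe set of Ndufaf4 was detected in 8 cells (1, 2, 4, 7, 9, 10, 12 and 13), at 325 to 25739 with a median of 330 over all cells, and was at most 11.9 in the other 6. The other probe set of Ndufaf4 did not repeat this split. It was detected in 6 cells, of which 2, 4, 7, 10 and 12 were shared and cell 5 was not, and the r between both probe sets was 0.31.

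Ndufaf5, an enzyme that hydroxylates Ndufs7, was detected in 9 cells and had 14.6, 2127 and 10453 as its lowest, median and highest signals. It was undetected in cells 3, 5, 11, 13 and 14, which include all 4 cells without Ndufa4. Its partner Ndufaf8 was detected in 5 cells (1.85, 46.9 and 6513), of which cells 1, 2, 6 and 12 also had Ndufaf5. Ndufaf7, a methyltransferase that modifies a core subunit, was detected in 7 cells, with 1.05 as the lowest, 182 as the median and 25268, in cell 5, as the highest signal. Ndufaf2, a paralog of Ndufa12 that acts late in assembly, was detected in cells 1, 2, 7, 11 and 12 (6.99, 39.6 and 13911). Ndufaf6 was detected in cells 8, 9 and 12 alone, at 1100, 189 and 271, with 0.687 as its lowest and 11.1 as its median signal.

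Of the 12 complex I genes detected in 4 to 10 cells, Ndufa4, Ndufaf1, Ndufaf4 and Ndufaf5 had a gap of at least 3 log2 units between their lowest detected and highest undetected signals. These were 33.3% of the 12, against 21.2% of the 4897 genes detected in as many cells. Their number depended on the threshold: it was 3 at 4 times the array median, 2 at 16 times (Ndufa4 and Ndufaf5) and 1 at a fixed signal of 1000 (Ndufa4). Ndufa4 was among them under each of these rules. The gap of Ndufaf4 held for its chosen probe set alone, as described above.

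**Figure D2:**
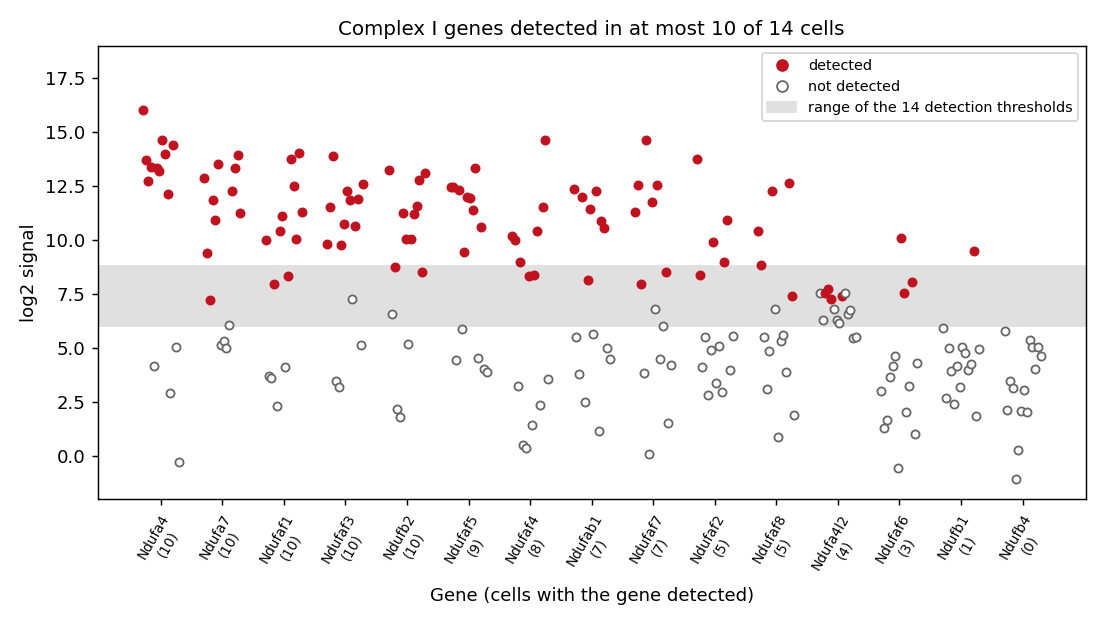
Log2 signals of the 15 complex I genes detected in at most 10 of 14 cells, with cells 1 to 14 from left to right within each gene and the number of cells below its name. Filled points are detected and open points undetected values, and the grey band spans the 14 detection thresholds. Ndufa4 leaves the space between its groups empty, and the values of Ndufa4l2 overlap.

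The 10 further assembly factors without an Nduf symbol that were measured had a median of 5 cells. Of these, 4 (40%, against 24.8% of all genes) were detected in at least 7 cells: Ecsit (7), Acad9 (7), Dmac1 (8) and Dmac2 (7). Tmem70 and Tmem186 were detected in 5 cells each, Tmem126b and Timmdc1 in 4 each, and Foxred1 in 2. Nubpl, which delivers iron-sulfur clusters to the complex, was detected in no cell.

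Genes of the other respiratory complexes were also widely detected. Of 33 nuclear genes of complex III, complex IV and ATP synthase, 32 were detected in at least 7 cells and 14 (42.4%) in every cell, with a median of 13 cells and a mean share per cell of 90.3% ± 8.83 (SD, n = 14). The 34 complex I subunits also had a median of 13 cells, with 7 (20.6%) in every cell and a mean share of 84.0% ± 13.8, and no test of the difference was made. The exception was Cox7c, detected in no cell by its chosen probe set, with a median signal of 2.72 and a highest of 414. Probe sets shared with other genes were examined for complex I genes alone, so this absence holds for that probe set. Of 4 complex II genes, 3 passed, and Sdhd was detected in 1 cell. All 13 glycolysis genes passed too, 10 of them being found in every cell, and 10 of 11 genes of the tricarboxylic acid cycle passed. Of 11 genes of mitochondrial transcription and biogenesis, Esrra and Yy1 were detected in 7 cells each and the rest in fewer. These 2 were 18.2% of the list, near the 24.8% of all genes, and the median was 3 cells against 1 for all genes. The regulators Nrf1, Gabpa and Ppargc1a were detected in 4, 2 and 3 cells. None of the 7 complex I subunits encoded in mitochondrial DNA was measured.

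**Figure D3:**
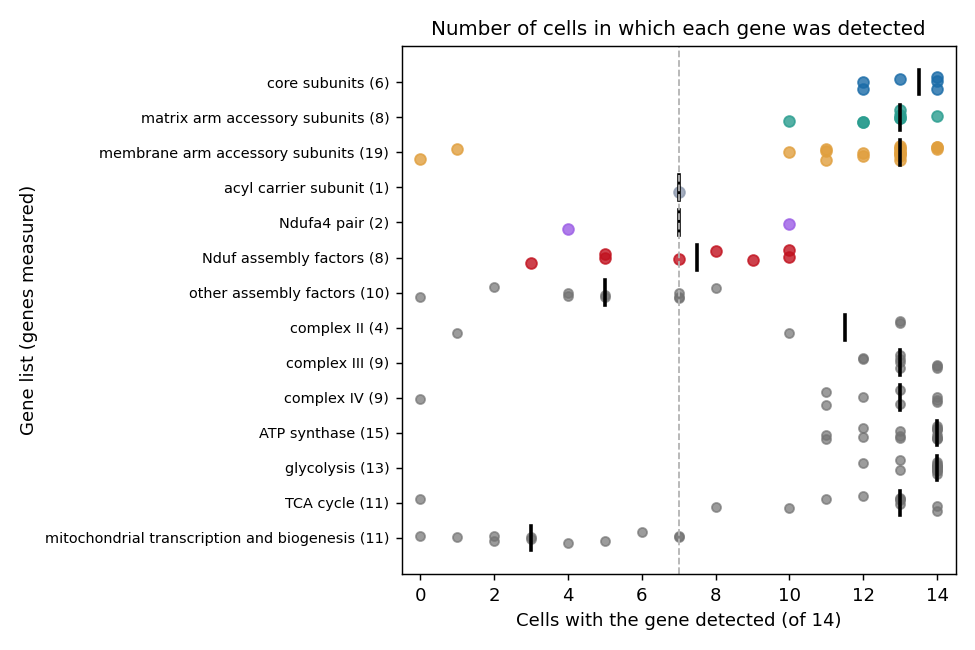
Number of cells (of 14) in which each gene was detected, by list, with the number of genes measured in brackets. Points are genes, coloured for the complex I roles and grey for other lists, black bars are medians and the dashed line is at 7 cells. Complex I subunits crowd at 10 to 14 cells apart from Ndufab1 (7), Ndufb1 (1) and Ndufb4 (0), and assembly factors spread from 0 to 10. In the other complexes Sdhd (1) and Cox7c (0) lie apart.

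The share of complex I genes detected differed between cells. Cells had 76.5% ± 14.4 of the 44 genes on average (SD, n = 14), from 16 genes (36.4%) in cell 5 to 42 genes (95.5%) in cell 12. Cell 5 was far below the rest, which started at 68.2% in cell 3. In cell 5, 14 of 34 subunits were detected, and 20 of the 76 undetected subunit values over all cells came from it. The 16 genes detected there had a median signal of 20474, but Ndufa8 (73.3), Ndufa4l2 (153) and Ndufa9 (435) were weak. None of its undetected members exceeded 60.3 (Ndufb7), just below the threshold of 65.3 in this cell. Ndufs3, Ndufb10 and Ndufaf7 reached their highest signals of all cells in cell 5 (59031, 50933 and 25268). Such peaks were not particular to complex I. Of its genes detected in at least 7 cells, 7.89% were highest in cell 5, against 15.6% of all genes detected as widely. Without cell 5, the number of complex I genes detected in every remaining cell rose from 7 to 15 (34.1% of the 44, while 3.7% of all genes were detected in each of those 13 cells), because 8 of the 13 genes missing from a single cell were missing from it.

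Cell 13 was unlike cell 5. It had 14.85% of all genes detected, almost as few, and yet 31 of 44 complex I genes. Of the 38 complex I genes detected in at least 7 cells, 14 (36.8%) had their highest signal of all cells there, against 15.9% of all genes detected as widely. They included Ndufs7, Ndufv1 (67072), Ndufa9 (63410), Ndufv3 (60095) and Ndufa10 (61379). The level of glycolysis genes was also highest in cell 13 (14.97). In cells 3 and 6, with the most rod markers, 68.2% and 84.1% of complex I genes were detected. Leaving these cells out kept the number detected in at least 6 of the remaining 12 at 38.

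Across cells, the complex I share followed the share of all genes detected, with Pearson's r of 0.82 and Spearman's rho of 0.84 over 14 cells, and r was 0.80 without cells 5 and 12. Against the share of complexes III to V, r was 0.88 and rho 0.72, and r fell to 0.67 without cells 5 and 10. The mean log2(signal + 32) of complex I genes detected in at least 7 cells, called their level below, was 11.73 ± 1.19 (SD, n = 14), from 8.61 in cell 5 to 13.26 in cell 12. This level followed that of complexes III to V with r = 0.87 and rho = 0.87, and with r = 0.74 without cells 5 and 8. Against the level of all genes detected in at least 7 cells, r was 0.71 and rho 0.50. With the level of glycolysis genes it shared little, with r of -0.11, rho of -0.19, and r of 0.15 without cells 1 and 4. All measures of a cell come from 1 array and share its yield, so these values are descriptions and carry no p. The complex I share showed no relation to the Gapdh ratio (r = -0.00, rho = 0.06, and r = 0.32 without cells 13 and 14).

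**Figure D4:**
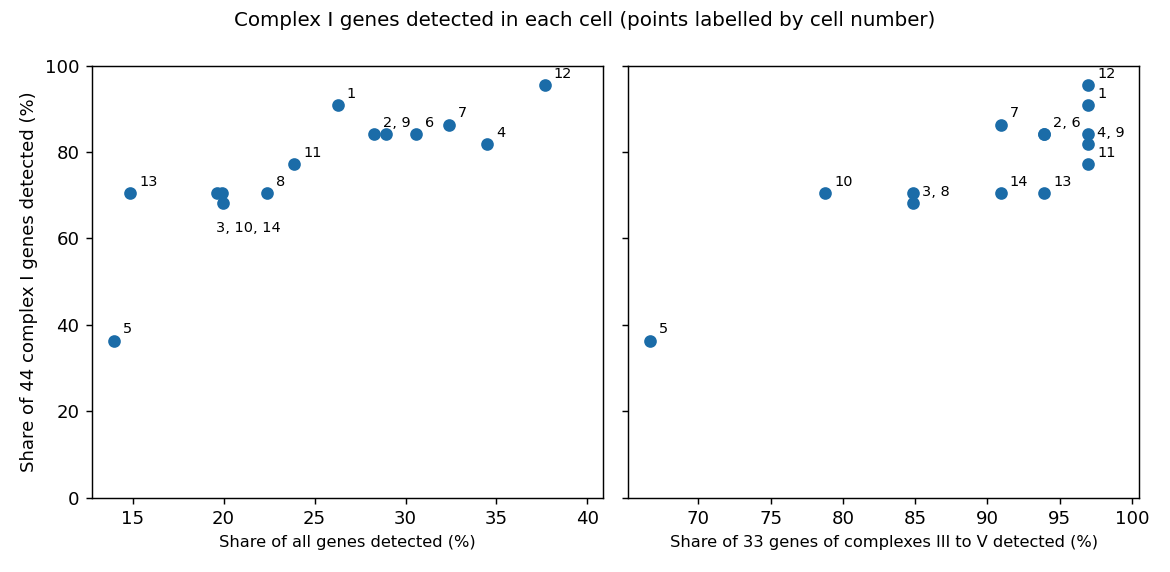
Share of the 44 complex I genes detected in each of 14 cells (vertical axes, %) against the share of all genes detected (left, %) and the share of 33 genes of complexes III to V (right, %). Points are cells with their numbers. Cell 5 lies lowest in both panels, and cell 13 had 70.5% of complex I genes with few genes detected in all.

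The members did not rise and fall together as 1 block. Over the 703 pairs of the 38 genes detected in at least 7 cells, the median r across cells was 0.19, and 5.55% of pairs reached 0.7. Over all genes detected as widely the median was 0.08 and 1.77% reached 0.7. Pairs of matrix arm accessory subunits had a median r of 0.40, membrane arm accessory subunits 0.27, core subunits -0.10 and Nduf assembly factors -0.03. Such values are weak, and no test was made on them. Between probe sets of the same complex I gene, the median r was 0.89 over all 81 pairs from 22 genes, and 47 pairs reached 0.7. Pairs in which both probe sets were detected in at least 7 cells, 45 pairs from 17 genes, had a median of 0.97 and all reached 0.7. Left out there are probe sets that missed a gene the other detected, such as those of Ndufa10 (13 cells and 1 cell). Probe sets of 1 gene read the same amplified cDNA and may share probes.

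**Figure D5:**
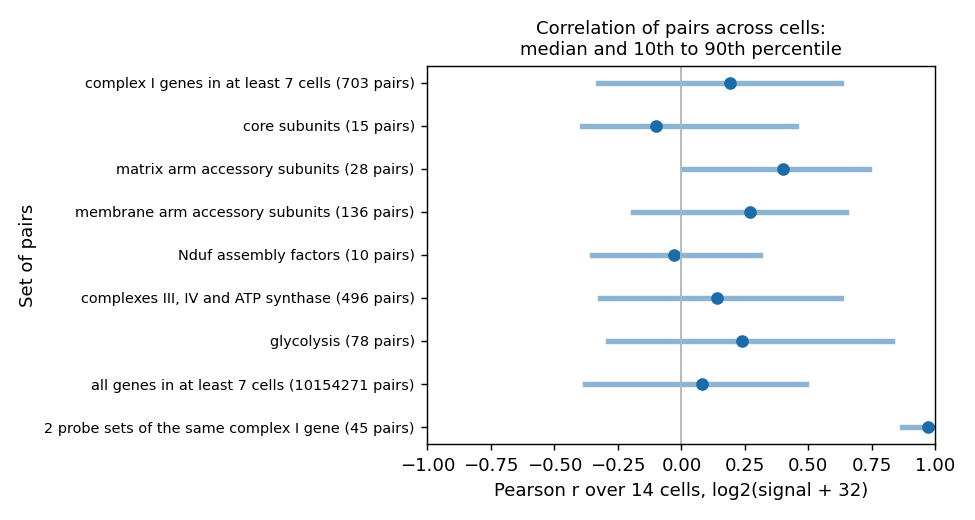
Pearson r across 14 cells between pairs of genes, and between probe sets of the same gene, on log2(signal + 32). Points are medians and bars run from the 10th to the 90th percentile of the pairs. Complex I genes centre on 0.19, and probe sets of 1 complex I gene on 0.97 where both were detected in at least 7 cells, as drawn.

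The closest pair was Ndufa6 of the matrix arm and Ndufb7 of the membrane arm, with r = 0.96. Both were lowest in cell 5 and highest in cell 13, and next lowest were cells 8, 7 and 10 for each in some order. Ndufa12 with Ndufc1 gave 0.93, and 0.81 and 0.77 with the 2 other widely detected probe sets of Ndufa12, which were detected in cell 3. Ndufa5 with Ndufa6 gave 0.91. The most opposed pair was Ndufaf5 with Ndufs7, at r = -0.85: the 5 cells without Ndufaf5 had Ndufs7 signals of 24275 to 67244, and the 9 cells with it 3842 to 26511, of which cell 6 alone exceeded 24275. Ndufv2 was opposed to Ndufa9 (-0.82) and to Ndufb8 (-0.75). Ndufa4 and Ndufaf5 gave 0.81. These pairs were picked from all 703 for their r and are given as a description.

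The promoter windows of the closest and of the most opposed pair, and that of Ndufa4, are shown because these genes carried the main patterns across cells. Each runs from 250 bases before to 50 bases after the gene start, 5' to 3' on the strand of the gene, as RefSeq gives it for mouse build GRCm38.p6. Capitals mark the motifs searched below on both strands. Ndufa6 lies at chr15:82354242-82354541 (minus strand), Ndufb7 at chr8:83566508-83566807 (plus strand), Ndufs7 at chr10:80249199-80249498 (plus strand), Ndufaf5 at chr2:140170396-140170695 (plus strand) and Ndufa4 at chr6:11907401-11907700 (minus strand).
Ndufa6: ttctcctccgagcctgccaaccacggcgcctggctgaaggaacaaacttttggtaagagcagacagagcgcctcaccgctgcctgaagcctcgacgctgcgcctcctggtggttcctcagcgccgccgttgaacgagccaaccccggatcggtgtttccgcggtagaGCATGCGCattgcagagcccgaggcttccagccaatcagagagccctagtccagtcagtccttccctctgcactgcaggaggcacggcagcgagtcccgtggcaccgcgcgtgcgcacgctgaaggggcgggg
Ndufb7: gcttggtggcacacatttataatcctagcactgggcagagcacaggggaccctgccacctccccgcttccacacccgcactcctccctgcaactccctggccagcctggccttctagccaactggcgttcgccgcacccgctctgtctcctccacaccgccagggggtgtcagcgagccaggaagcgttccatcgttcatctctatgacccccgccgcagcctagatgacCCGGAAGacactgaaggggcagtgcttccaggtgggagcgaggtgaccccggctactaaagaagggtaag
Ndufs7: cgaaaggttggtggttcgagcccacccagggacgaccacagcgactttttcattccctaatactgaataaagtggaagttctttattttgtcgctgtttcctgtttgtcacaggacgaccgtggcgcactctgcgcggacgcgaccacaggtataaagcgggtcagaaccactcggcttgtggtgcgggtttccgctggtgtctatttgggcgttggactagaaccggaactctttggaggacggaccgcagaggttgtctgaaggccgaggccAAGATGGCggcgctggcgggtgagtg
Ndufaf5: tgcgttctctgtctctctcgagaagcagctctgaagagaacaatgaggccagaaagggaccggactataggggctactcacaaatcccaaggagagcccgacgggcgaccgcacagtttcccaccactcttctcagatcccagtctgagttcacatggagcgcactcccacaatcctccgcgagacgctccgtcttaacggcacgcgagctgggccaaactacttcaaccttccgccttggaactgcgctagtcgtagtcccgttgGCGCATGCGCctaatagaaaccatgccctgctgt
Ndufa4: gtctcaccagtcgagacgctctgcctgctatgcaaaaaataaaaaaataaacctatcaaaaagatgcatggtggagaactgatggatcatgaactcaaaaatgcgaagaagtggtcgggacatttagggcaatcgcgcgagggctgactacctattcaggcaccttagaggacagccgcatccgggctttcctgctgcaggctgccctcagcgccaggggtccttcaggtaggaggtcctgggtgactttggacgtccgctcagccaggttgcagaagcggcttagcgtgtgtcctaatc

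RefSeq windows were matched for 39 of the 44 genes, and not for Ndufa2, Ndufa4l2, Ndufaf6, Ndufb9 and Ndufs1. The motifs are known for factors that act on nuclear genes of mitochondria. The YY1 letters AAGATGGC were in 7 of the 39 windows (17.9%), against 6.5% of the 3647 windows of genes detected in at least 7 cells and 3.19% of all 27025. They were in Ndufs7, Ndufs4, Ndufa3, Ndufa9, Ndufb8, Ndufc1 and Ndufaf8. The NRF1 letters GCATGCGC were in 4 windows (10.3%, against 7.57% and 3.05%), those of Ndufa6, Ndufa8, Ndufaf4 and Ndufaf5. The ETS letters CCGGAAG were in 6 (15.4%, against 22.9% and 9.93%), those of Ndufs3, Ndufs8, Ndufb6, Ndufb7, Ndufaf1 and Ndufaf8. The ESRRA letters TCAAGGTCA were in none, against 0.329% and 0.466%. In Ndufaf5 the NRF1 letters stood on both strands and overlapped, and no motif was found in Ndufa4. The closest pair thus shared no motif, since Ndufa6 held the NRF1 letters and Ndufb7 the ETS letters. The median GC content was 59.7% in the windows of complex I genes, 62% in those of genes detected in at least 7 cells and 52.7% in all windows. A match of letters is a description and does not show that a factor binds there.

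Outside the rule, the genes whose pattern across the 14 cells was most like the complex I level were Cox6c (r = 0.92), a complex IV subunit, Eif4a1 (0.91), a translation initiation helicase, Tle5 (0.90), a transcriptional corepressor, Atp6v1f (0.88), a subunit of the vacuolar proton pump, and Tkt (0.88), an enzyme of the pentose phosphate pathway. Cox6c was at 22.4 in its lowest cell, 17375 at the median and 30002 in its highest. These genes were ranked on 14 cells among the 4507 genes detected in at least 7 cells, with the members left out of the ranking.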

How the data were processed

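Single red RGCs of adult mice were measured on 1 array each, 14 in all, forming 1 group. The deposited values are signal intensities of probe sets on a linear scale, for which the authors used MAS5, its version being not given in the sources used here. A 2% trimmed mean of 500.0 on every array was found in the file, and array medians lay between 8.02 and 55.0. The paper names more than 1 facility for the hybridisation of all its arrays, which included other cells than these. The sources used here do not say where each of the 14 arrays was hybridised, or whether more than 1 facility was used for them. Of 45037 probe sets without controls, 34945 named 1 gene, 932 several and 9160 none. Each gene was represented by the probe set that had its highest mean log2 signal, and symbols were updated through RefSeq (GRCm38.p6). Of the 44 members, 22 had several probe sets, and another of these shared 85.3% of 259 detections and made 4 of 49 non-detections (8.16%) a detection. Correlations used log2(signal + 32) and have no p, since no source names animals and cells are not replicates of a condition. The members, lists and thresholds were chosen with earlier results of these data known, and motifs, probe set pairs and printed promoters after seeing the values reported here. Every member is named, with values for core subunits, members found in every cell and members in at most 10 cells. The code for calls and correlations was run on simulated data. There, present values were set well above the threshold and absent values below it. Recovery of the calls was thus fixed by that setting and says nothing about values near the threshold. Python 3.11.15, pandas 2.3.3, numpy 2.4.6, scipy 1.17.1 and matplotlib 3.10.9 were used. The number of arrays limits the precision.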

Additional observations from a re-analysis of the deposited data

How the results depend on the processing

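Of 67 values computed under other settings for the 9 main results, 58 stayed close to the reported value, 9 moved and none changed sign. Close meant within 1.5-fold for counts and within 1 standard error on Fisher's z scale for correlations. For shares and levels it meant within 1 SD over cells (14.4 and 2.28). For the median pair correlation it meant within 1 SD over gene pairs (0.35). These SDs are wide, so staying close says little for the results judged by them. The number of complex I genes detected in at least 7 of 14 cells (or 6 of 12) stayed between 32, with subunits alone, and 40. The mean share lay between 67.9% and 84%, the mean of the cells' median log2 signals between 10.52 and 12.19, and the median pair correlation between 0.13 and 0.29. The number detected in every cell was 11 with detection at 4 times the array median, and 15 both without cells 5 and 13 and without cell 5, the last setting being chosen after seeing the data. The number detected in no cell was 3 at a fixed signal of 1000. The number with a wide gap was 2 at 16 times the array median, 1 at a fixed signal of 1000 and 11 without cells 3 and 6, where genes missing from 2 of 12 cells also fall within 4 to 10 cells by construction. The correlation of the complex I share with that of all genes was 0.62 at 4 times the median, and that of the levels of complex I and complexes III to V was 0.97 with deviations from each cell's common level. In the latter setting the same value of a cell was subtracted from both levels, which can raise r by construction. The cause was not tested for the other moves. No paired analysis was possible because all cells form 1 group. Single-cell yield limits every non-detection.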
